A study of Mus musculus with 6 samples.

Results

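The genes described here are 9 regulators of the pancreatic islet: the homeobox transcription factors Pdx1, Nkx6-1, Nkx2-2, Mnx1, Isl1, Pax6, Pax4 and Hhex, and the cofactor Ldb1. They were taken by gene name from a deposited table of 54532 mouse genes, in which each name had a single row. Of the 9, 8 passed a minimum mean of 0.5 FPKM (read fragments scaled to gene length and library size, a level per length) over the 6 samples, as did 15927 genes in all, and Pax4 did not. The libraries were made from poly-A RNA of islets isolated at 7 weeks of age, in 3 samples labelled Wtap-βKO and 3 samples labelled Wtap flox/flox, and each sample pooled 3 mice. In Wtap flox/flox mice recombination sites flank part of Wtap, and Wtap-βKO names a deletion of the gene in the insulin-producing β cells. The labels name neither the Cre line nor the deleted exons. The WTAP protein belongs to the methyltransferase complex that deposits N6-methyladenosine on RNA in the nucleus.

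The targeted gene showed no lower RNA level in the samples labelled Wtap-βKO, with Wtap at 11.2, 11.9 and 12.3 FPKM, against the Wtap flox/flox controls at 10.5, 11.4 and 11.6 FPKM (limma log2 fold change 0.07 ± 0.063 SE, adjusted p = 0.475). The level covers the whole gene in every cell of the islet, so it cannot show whether part of the gene was removed in β cells, and each direction given here is that of the libraries as labelled. Between 16353297 and 18682745 reads per sample could be recovered from the table. Replicate 2 labelled Wtap-βKO stood apart from the other samples of its group, at 16.4 and 15.6 chi-square units per degree of freedom from them, where the other pairs within a group lay between 5.06 and 6.15.

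Homeobox genes encode proteins that bind DNA through a homeodomain, a short fold of 3 helices whose last helix lies in the major groove and reads sequences built around a TAAT core. In the embryo these factors divide the pancreas into its endocrine lineages, and in adult islets they hold each cell type in its state. PDX1, NKX6-1 and MNX1 are known mainly from β cells, PAX6, ISL1 and NKX2-2 from several or all endocrine types, HHEX from the somatostatin-producing δ cells, and PAX4 from the developing β-cell lineage. LDB1 has no homeodomain and binds no DNA itself. It joins LIM-domain proteins such as ISL1 into larger complexes, so the name homeobox factor covers 8 of the 9 genes. The deposited table's own family column listed 6 of them as Homeobox, Pax6 and Pax4 as PAX, and Ldb1 in no family.

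The stretch of the homeobox that encodes the DNA-reading helix is shown for 6 of the 8 factors because it is what they share. It spans codons 41 to 60 of the homeodomain, read 5′ to 3′ on the coding strand from GENCODE M21 transcripts, and capitals mark codons 48 to 51, which hold an invariant tryptophan, phenylalanine and asparagine.
Pdx1: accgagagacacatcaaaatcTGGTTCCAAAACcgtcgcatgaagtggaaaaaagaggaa
Mnx1: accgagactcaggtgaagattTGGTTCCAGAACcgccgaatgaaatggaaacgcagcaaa
Pax6: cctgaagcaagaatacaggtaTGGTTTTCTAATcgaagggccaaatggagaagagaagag
Pax4: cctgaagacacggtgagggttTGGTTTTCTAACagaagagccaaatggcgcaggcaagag
Isl1: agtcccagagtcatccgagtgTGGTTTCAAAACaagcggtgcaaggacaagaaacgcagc
Hhex: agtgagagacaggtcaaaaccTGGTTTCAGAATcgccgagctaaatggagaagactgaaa
The 4 codons in capitals were spelled in 6 different ways among all 8 genes. Over the whole homeobox of 180 bases, Pax6 and Pax4 were the most alike pair, with 63.3% identical bases, followed by Pdx1 and Mnx1 with 62.8%. Mnx1 and Isl1 were the least alike, at 35.0%.

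The β-cell factors fell. Nkx6-1, Pdx1 and Mnx1 were all lower in the libraries labelled Wtap-βKO, between 1.59-fold and 2.18-fold, and Pax6 was lower by a smaller step. No member was called higher. Of the 8 members tested, 4 were called lower at an adjusted p under 0.05, where 11.3% of all genes tested were called lower and 8.77% higher, or 20.1% in either direction. The values of the groups did not overlap for 7 of the 8, and for 41.3% of all genes tested. Scaling to total recovered reads changed the split of calls over all genes to 1093 lower and 2336 higher, against 1798 lower and 1397 higher, and scaling without the 50 highest genes changed it to 1440 lower and 1677 higher. The 4 members were called lower under both. Since the members were chosen with results of these data known, this share is a description. In whole islets, fewer cells of a type and less RNA per cell cannot be told apart.

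Nkx6-1, which represses the α-cell programme in β cells and is needed for insulin synthesis, is encoded on the minus strand of chromosome 5 (bases 101658139 to 101664996) in GRCm38. Its level was 87.0, 92.6 and 88.8 FPKM in the libraries labelled Wtap-βKO, against 194, 204 and 188 FPKM in the controls. The highest library labelled Wtap-βKO was thus below every control by more than the range within either group. The Wtap-βKO mean was 89.5 ± 2.87 FPKM and the control mean 195 ± 7.99 FPKM (SD, n = 3 each), 2.18-fold lower (limma log2 fold change -1.12 ± 0.057 SE, adjusted p = 0.000148). Nkx6-1 had the highest level of the 9 genes in all 6 samples.

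Pdx1, which binds the insulin gene promoters and mutations of which in people cause a form of monogenic diabetes, is encoded on the plus strand of chromosome 5 (bases 147269959 to 147275848). Its level was 57.8, 39.7 and 60.8 FPKM in the libraries labelled Wtap-βKO, against 97.1, 95.1 and 105 FPKM in the controls. Replicate 2 was the lowest, and the groups did not overlap. The Wtap-βKO mean was 52.7 ± 11.4 FPKM and the control mean 99.1 ± 5.24 FPKM (SD, n = 3 each), 1.88-fold lower (limma log2 fold change -0.92 ± 0.15 SE, adjusted p = 0.00867). Without that replicate the log2 fold change was -0.73, with adjusted p = 0.00170.

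Mnx1, which keeps β cells from taking on δ-cell features in mice, is encoded on the minus strand of chromosome 5 (bases 29473034 to 29478470). It stood at 10.5, 12.5 and 13 FPKM in the libraries labelled Wtap-βKO, against 18.7, 20.2 and 18.7 FPKM in the controls, with no overlap. The Wtap-βKO mean was 12.0 ± 1.32 FPKM and the control mean 19.2 ± 0.873 FPKM (SD, n = 3 each), 1.59-fold lower (limma log2 fold change -0.64 ± 0.086 SE, adjusted p = 0.00402).

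**Figure D1:**
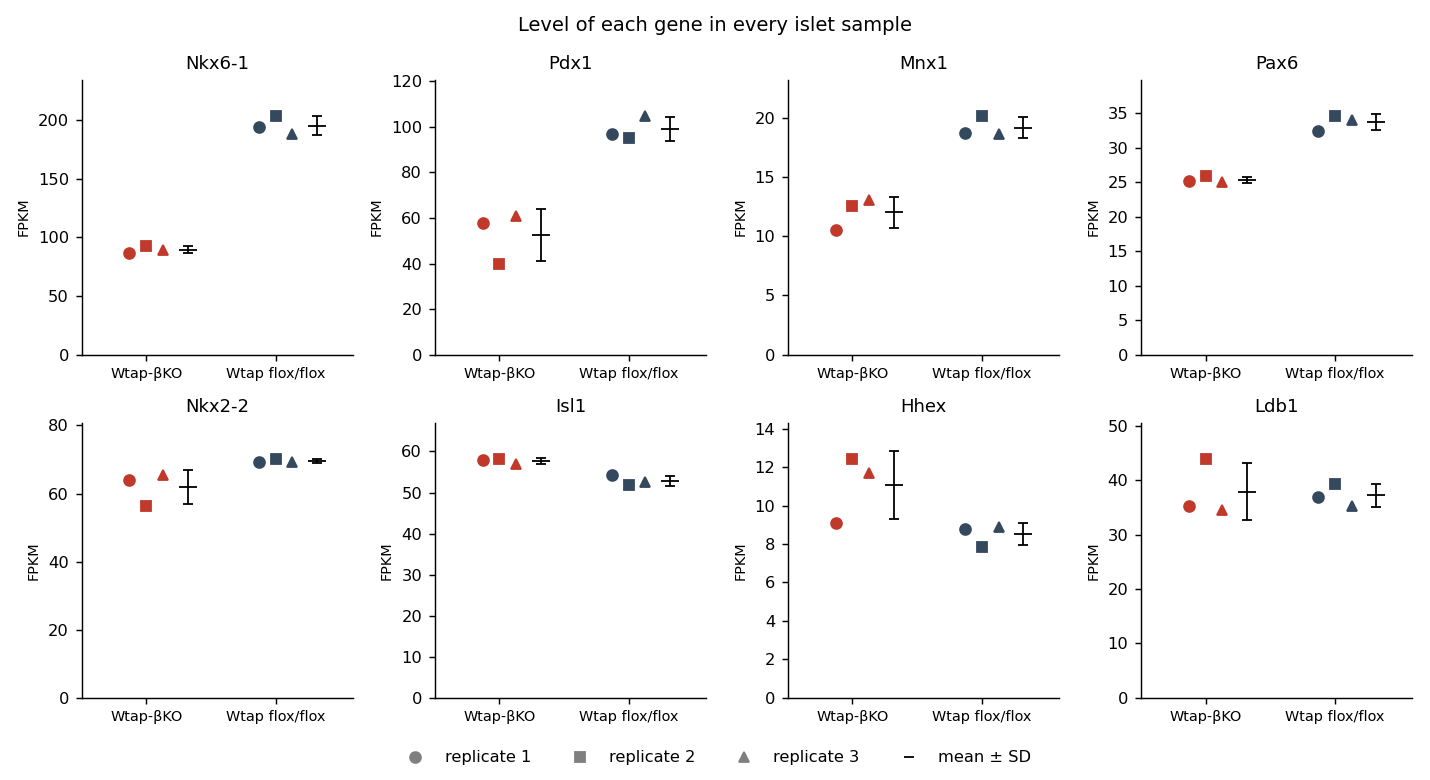
FPKM (vertical axes, from 0) of the 8 members above the minimum level in each of the 3 samples labelled Wtap-βKO (red, left) and the 3 Wtap flox/flox samples (dark, right), with marker shapes for replicate numbers and bars for mean ± SD. Nkx6-1, Pdx1, Mnx1 and Pax6 sit lower on the left with no overlap, and Ldb1 overlaps.

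The factors of several endocrine types moved less. Pax6, which carries both a paired domain and a homeodomain and is required for the expression of islet hormones, is encoded on the plus strand of chromosome 2 (bases 105668900 to 105697364). Its level was 25.2, 25.9 and 25 FPKM in the libraries labelled Wtap-βKO, against 32.4, 34.7 and 34.0 FPKM in the controls. Both groups were tight and separate. The Wtap-βKO mean was 25.4 ± 0.424 FPKM and the control mean 33.7 ± 1.14 FPKM (SD, n = 3 each), 1.33-fold lower (limma log2 fold change -0.40 ± 0.051 SE, adjusted p = 0.00338). The table gave Pax6 a length of 11694 bases, the longest of the members, so its FPKM is low for the reads it had, between 5048 and 7073 a sample.

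Nkx2-2, which sustains β-cell identity and recruits Groucho corepressors, is encoded on the minus strand of chromosome 2 (bases 147177546 to 147194243). It was at 64.1, 56.2 and 65.5 FPKM in the libraries labelled Wtap-βKO, against 69.4, 70.2 and 69.2 FPKM in the controls. The groups did not overlap, yet the difference did not pass the test across all genes (limma log2 fold change -0.17 ± 0.068 SE, 95% interval -0.33 to -0.01, adjusted p = 0.129). Replicate 2 was the lowest, and leaving it out gave a log2 fold change of -0.10.

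Isl1, a LIM-homeodomain factor that pairs with LDB1, is encoded on the minus strand of chromosome 13 (bases 116298281 to 116309689). It was at 57.8, 58.2 and 56.9 FPKM in the libraries labelled Wtap-βKO, against 54.2, 51.8 and 52.5 FPKM in the controls. Every library labelled Wtap-βKO was above every control, by a small margin that did not pass the test (limma log2 fold change 0.12 ± 0.047 SE, 95% interval 0.01 to 0.24, adjusted p = 0.112). Isl1 was called higher with quantile normalization (log2 fold change 0.18, adjusted p = 0.0479) and when scaled to total recovered reads (0.24, adjusted p = 0.0200).

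Ldb1 is encoded on the minus strand of chromosome 19 (bases 46032593 to 46045214). It was at 35.2, 43.9 and 34.6 FPKM in the libraries labelled Wtap-βKO, against 37.0, 39.4 and 35.2 FPKM in the controls. The groups overlapped, with replicate 2 labelled Wtap-βKO the highest of the 6 samples. The log2 fold change was 0.02 (SE 0.10, 95% interval -0.22 to 0.26, adjusted p = 0.907 by limma). It turned to -0.09 without that replicate and to -0.02 without control replicate 3.

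Hhex, a factor of δ cells that is also made in endothelium, is encoded on the plus strand of chromosome 19 (bases 37434810 to 37440731). It was at 9.07, 12.4 and 11.7 FPKM in the libraries labelled Wtap-βKO, against 8.81, 7.86 and 8.91 FPKM in the controls. The groups were separate by the margin between replicate 1 labelled Wtap-βKO and control replicate 3. The difference did not pass the test (limma log2 fold change 0.33 ± 0.12 SE, 95% interval 0.06 to 0.61, adjusted p = 0.0887), and it passed in 4 of 19 alternatives, 1 of them without replicate 1 labelled Wtap-βKO (log2 fold change 0.46, adjusted p = 0.0207). Beside it, all 3 δ-cell markers (Sst, Rbp4 and Ghsr) were called higher, where 8.77% of all genes tested were. Their summed level was 5598 to 8260 FPKM in the libraries labelled Wtap-βKO, against 3938 to 4303 FPKM in the controls. Endothelial markers summed to 187 to 210 FPKM in the libraries labelled Wtap-βKO and 166 to 197 FPKM in the controls, and none of the 5 was called. The part of these cells in the Hhex values was not tested.

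Pax4, which favours the β-cell over the α-cell lineage in the embryo, is encoded on the minus strand of chromosome 6 (bases 28442334 to 28449353). It was listed at 0 in all 6 samples. A count of 0 allows up to 3 reads, which at this depth is 0.110 to 0.120 FPKM in the libraries labelled Wtap-βKO and 0.117 to 0.131 FPKM in the controls, for counting error only. No fold change was given for it.

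**Figure D2:**
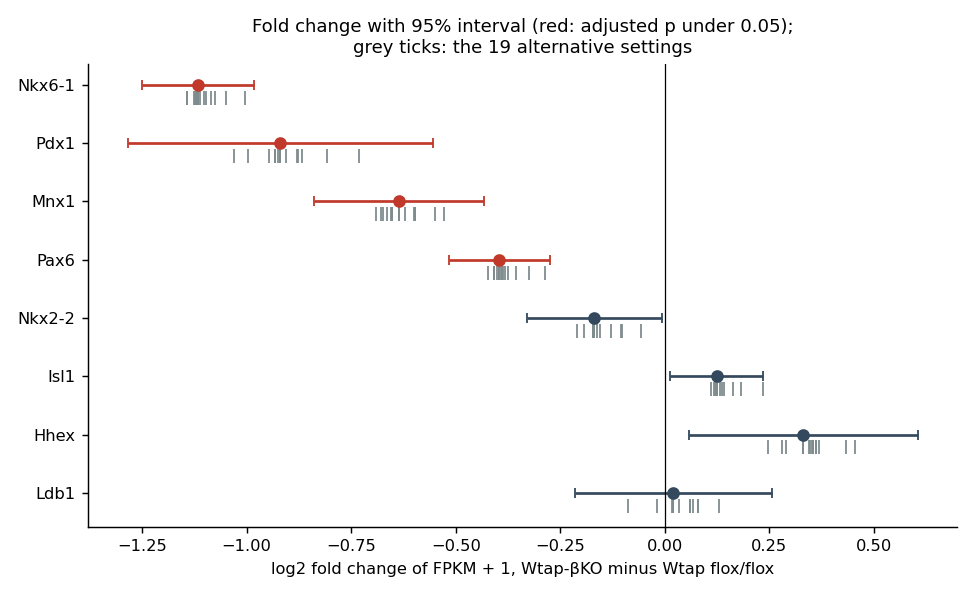
Log2 fold change of FPKM + 1 (horizontal axis, Wtap-βKO minus Wtap flox/flox) with its 95% interval for the 8 members tested; red points had an adjusted p under 0.05, and grey ticks below each point are the 19 alternative settings. The points run from -1.12 for Nkx6-1 to 0.33 for Hhex, and the ticks lie on both sides of 0 for Ldb1 alone.

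The order of the levels changed with the group. In the controls it was Nkx6-1, Pdx1, Nkx2-2, Isl1, Ldb1, Pax6, Mnx1 and Hhex, from high to low FPKM, and no neighbours in it overlapped. In the libraries labelled Wtap-βKO, Pdx1 took rank 4, 5 and 3 among the members, where it had rank 2 in every control. Nkx2-2, Isl1 and Pdx1 overlapped there, as did Pdx1 and Ldb1, and Mnx1 and Hhex. Among all genes tested, Nkx6-1 exceeded 98.3% to 98.4% in the libraries labelled Wtap-βKO and 99.4% in each control, while Hhex exceeded 68.7% to 76.6% in the Wtap-βKO libraries and 64.1% to 67.4% in the controls.

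A ratio of 2 genes within a sample does not depend on how samples were scaled to each other. The level of Nkx6-1 over that of Isl1 was 1.51, 1.59 and 1.56 in the libraries labelled Wtap-βKO, against 3.58, 3.93 and 3.58 in the controls. That of Pdx1 over Isl1 was 1.0, 0.682 and 1.07 in the libraries labelled Wtap-βKO, against 1.79, 1.84 and 2.0 in the controls. Neither ratio overlapped between the groups, as had to follow from the separate values of Nkx6-1, Pdx1 and Isl1 themselves. Pax6 over Isl1 was 0.440 ± 0.00365 in the libraries labelled Wtap-βKO and 0.639 ± 0.0361 in the controls, with SD and n = 3 each. Mnx1 over Isl1 was 0.209 ± 0.0241 in the Wtap-βKO libraries and 0.364 ± 0.0233 in the controls, and Nkx2-2 over Isl1 was 1.08 ± 0.0969 in the Wtap-βKO libraries and 1.32 ± 0.0371 in the controls. The members thus changed unequally. The ratios were chosen after the values were seen and carry no test.

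**Figure D3:**
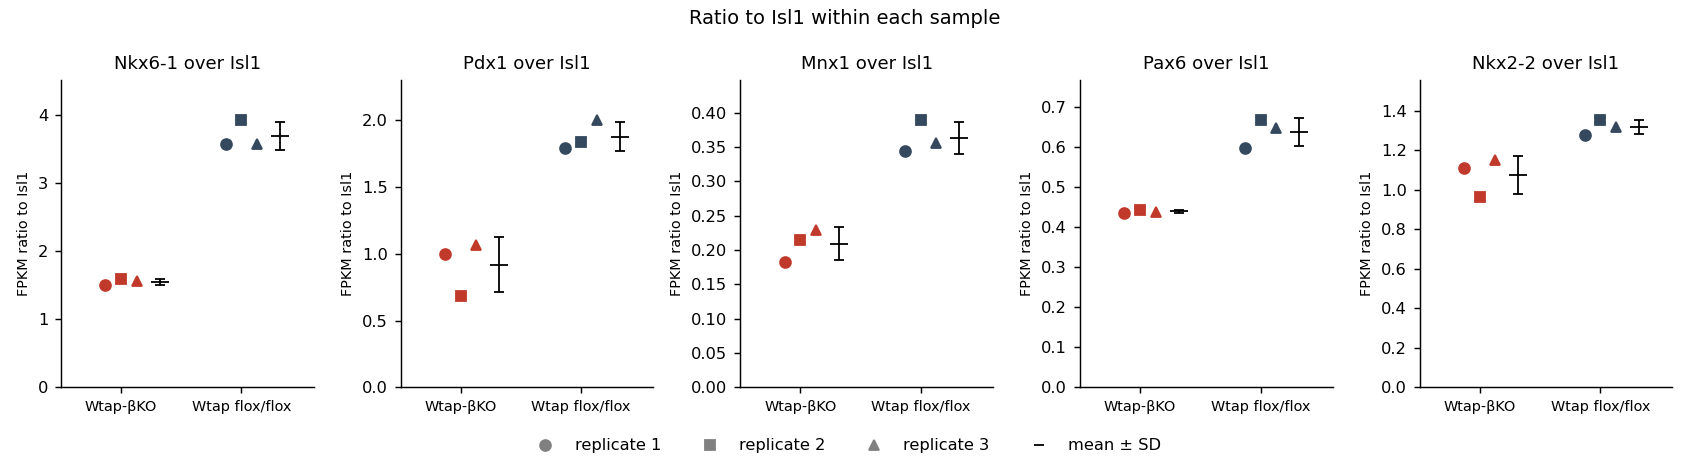
FPKM of 5 members divided by that of Isl1 in the same sample (vertical axes, from 0), for the samples labelled Wtap-βKO (red, left) and Wtap flox/flox (dark, right), with mean ± SD. All 5 ratios are lower on the left without overlap, Nkx6-1 over Isl1 by the most. This was fixed by the members' own values, since Isl1 was higher and the other 5 lower there, each without overlap.

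Some members share their locus with another gene, and the library protocol does not mark strand. Reads from bases that lie in exons of both genes therefore cannot be assigned to either. The shared bases given here are those of whole gene spans, introns included, and the part in exons was not counted. Plut, a noncoding transcript opposite Pdx1 that is known in human islets to support PDX1 transcription, spans chromosome 5 from 147228596 to 147271521 and shares 1563 bases with Pdx1. Its level was 4.31, 5.13 and 3.50 FPKM in the libraries labelled Wtap-βKO, against 12.7, 12.1 and 12.4 FPKM in the controls. It fell 2.87-fold (limma log2 fold change -1.35 ± 0.11 SE, adjusted p = 0.000768), with a call in each of the 18 alternatives that tested it. Plut and Pdx1 fell together, and replicate 2 labelled Wtap-βKO had the highest Plut and the lowest Pdx1 of its group.

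Pax6os1, which shares 1431 bases with Pax6 on the opposite strand, averaged 5.2 ± 1.03 FPKM in the libraries labelled Wtap-βKO and 7.34 ± 0.630 FPKM in the controls (SD, n = 3 each), without overlap and just outside the threshold (adjusted p = 0.0507 by limma). The noncoding 6430503K07Rik lies wholly inside Nkx2-2 on the opposite strand, with 984 shared bases. It averaged 23.6 ± 0.763 FPKM in the libraries labelled Wtap-βKO and 26.7 ± 5.63 FPKM in the controls, and the groups overlapped (adjusted p = 0.460 by limma), with control replicate 3 alone at 33.2 FPKM. Nkx2-2os shares 10161 bases with Nkx2-2 and had a mean of only 0.0218 FPKM over the 6 samples. Ldb1 shares 329 bases with Pprc1, a coactivator gene on the opposite strand, which was at 6.64 ± 0.497 FPKM in the Wtap-βKO libraries and 5.56 ± 0.176 FPKM in the controls (adjusted p = 0.0761 by limma). Nkx6-1, Mnx1, Isl1, Pax4 and Hhex overlapped no gene of the table.

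**Figure D4:**
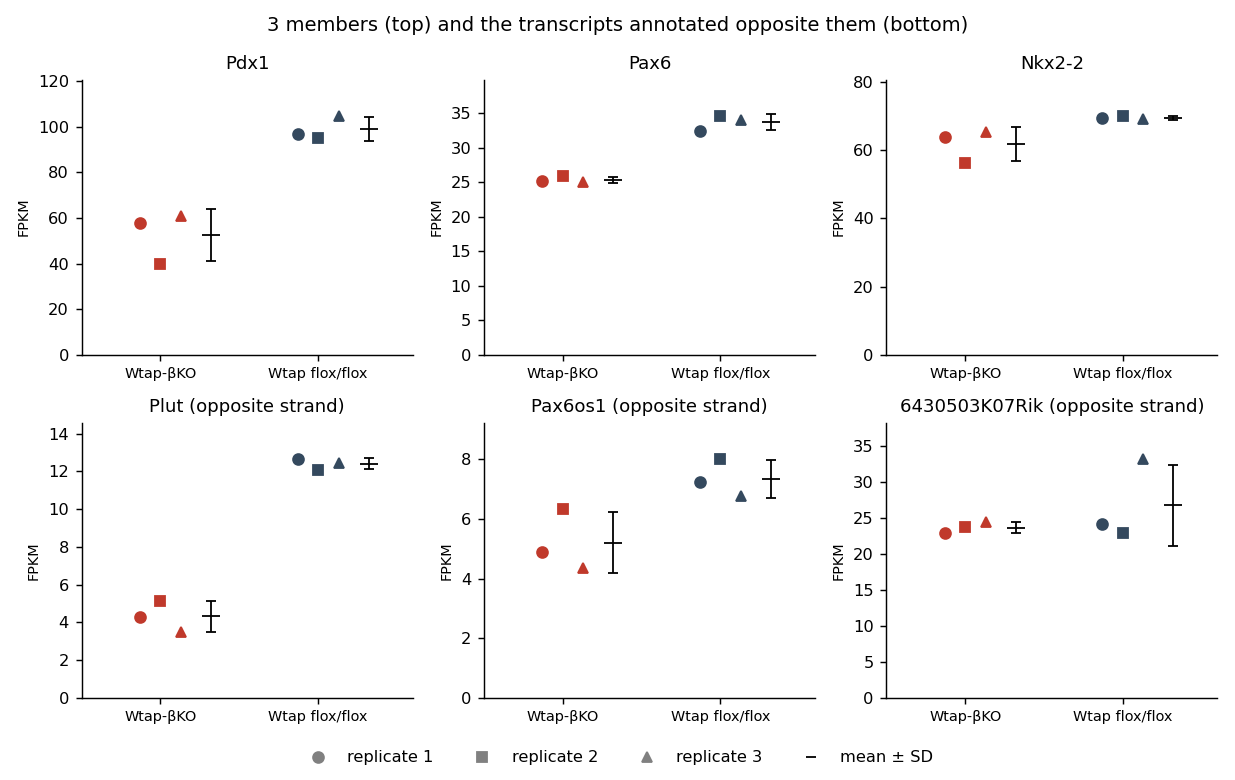
FPKM (vertical axes, from 0) of Pdx1, Pax6 and Nkx2-2 (top) and of the transcripts annotated on the opposite strand (bottom) in each sample labelled Wtap-βKO (red, left) and Wtap flox/flox (dark, right), with mean ± SD. Plut is lower on the left without overlap, at 3.50 to 5.13 FPKM in the Wtap-βKO samples against 12.1 to 12.7 FPKM in the controls, while 6430503K07Rik overlaps.

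Homeodomain proteins act with partners, among them the TALE factors of the PBX, MEIS and PKNOX families. Over all genes tested, 20.1% were called in either direction, and the median log2 fold change was -0.01. Of 28 other homeodomain factors known from islets or pancreas, 18 passed the minimum level. Of these, 4 were called higher and 1 lower, with a median log2 fold change of 0.19. Among them, Irx2, an α-cell factor, rose 1.37-fold, Prox1 1.30-fold and the TALE gene Pbx4 1.79-fold. Pbx3 was the one that fell, by 0.38 on the log2 scale. Prox1 and Pbx3 were called in 14 of 19 alternatives, Irx2 in 11 of 19 and Pbx4 in 9 of the 18 that tested it. Meis1 was at 1.54 ± 0.13 FPKM in the libraries labelled Wtap-βKO and 2.11 ± 0.155 FPKM in the controls and did not pass (adjusted p = 0.0644 by limma). The count of 5 called came to 2, 3 and 1 without replicate 1, 2 and 3 labelled Wtap-βKO, and to 3, 1 and 1 without control replicate 1, 2 and 3.

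Of 19 cofactors (LDB1 partners, Groucho corepressors of the TLE family and known PDX1 partners), 2 were called higher and 3 lower, with a median log2 fold change of 0.07. The share called in either direction over all genes tested was 20.1%. Tle3, the Groucho corepressor that acts with NKX2-2 in mouse β cells, was at 5.54, 6.61 and 5.2 FPKM in the libraries labelled Wtap-βKO, against 12.8, 13.8 and 11.6 FPKM in the controls. It fell 2.20-fold with no overlap (limma log2 fold change -1.02 ± 0.099 SE, adjusted p = 0.00124), and was called in all 19 alternatives. Its paralogue Tle1 was at 11.5, 18.5 and 10.5 FPKM in the libraries labelled Wtap-βKO, against 7.30, 6.85 and 6.0 FPKM in the controls. Tle1 rose 2.01-fold, with replicate 2 labelled Wtap-βKO the highest (limma log2 fold change 0.87 ± 0.20 SE, adjusted p = 0.0229), and passed in 15 of 19 alternatives. In each library labelled Wtap-βKO the level of Tle1 was thus above that of Tle3, and in each control it was below, with ratios of 2.30 ± 0.440 in the Wtap-βKO libraries and 0.528 ± 0.0396 in the controls (SD, n = 3 each). Tle6 fell by 0.42 and Smarca4, the chromatin remodelling ATPase that PDX1 recruits, by 0.31 on the log2 scale, while Rlim, a ubiquitin ligase that acts on LDB1 complexes, rose 1.22-fold. They were called in 11 of 18, 10 of 19 and 13 of 19 alternatives. Setd7, a methyltransferase that PDX1 recruits, was at 10.6 ± 0.494 FPKM in the libraries labelled Wtap-βKO and 9.25 ± 0.10 FPKM in the controls and did not pass (adjusted p = 0.0717 by limma). This count of 5 also changed when a library was left out, to 2, 7 and 3 without replicate 1, 2 and 3 labelled Wtap-βKO. It was 1 without any 1 of the controls. The calls over all genes fell there as well, from 1798 to between 1027 and 1046 lower.

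Genes that one or more of these factors are known to activate in mouse β cells were mostly lower. Of all genes tested, 11.3% were called lower and 8.77% higher, with a median log2 fold change of -0.01. Of the 14 genes of this list, 9 were called lower and 1 higher, with a median of -1.10. By the naming rule the 6 with the smallest adjusted p were Slc2a2 (the glucose transporter GLUT2), Mafa, Atp2a2 (an endoplasmic reticulum calcium pump), Ero1lb (a disulfide oxidase of proinsulin folding), Slc30a8 (the zinc transporter of insulin granules) and G6pc2 (an islet glucose-6-phosphatase). Slc2a2 fell to 33.5 ± 2.5 FPKM in the libraries labelled Wtap-βKO, against 179 ± 17 FPKM in the controls, 5.34-fold (adjusted p = 8.06e-05 by limma). Mafa, which activates the insulin genes, fell to 49.0 ± 6.65 FPKM in the Wtap-βKO libraries, against 356 ± 33.7 FPKM in the controls, 7.26-fold (adjusted p = 8.91e-05 by limma). Ero1lb, a gene that NKX6-1 activates, fell to 127 ± 11 FPKM in the libraries labelled Wtap-βKO, against 393 ± 10.7 FPKM in the controls, 3.08-fold (adjusted p = 0.000120 by limma). G6pc2 fell 2.44-fold, Atp2a2 2.40-fold and Slc30a8 1.91-fold. Of this list only Pcsk2, a prohormone convertase also made in α cells, was called higher (log2 fold change 0.27, adjusted p = 0.0465).

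Gcg and Ghrl, hormone genes of other islet cells that some of these factors repress, had higher means in the libraries labelled Wtap-βKO. Gcg, the glucagon gene, was at 35736, 31533 and 41946 FPKM in the libraries labelled Wtap-βKO, against 24177, 20117 and 23218 FPKM in the controls, without overlap. It did not pass (SE 0.24, adjusted p = 0.0890 by limma), while it was called higher in 9 of 19 alternatives. Among these were limma without a variance trend (SE 0.13, adjusted p = 0.0178) and the fit without replicate 2 labelled Wtap-βKO (adjusted p = 0.0457). With no filter on low values the SE of Gcg was 3.44 (adjusted p = 0.925 by limma), so the result depended on how the variance was fitted. Ghrl, the ghrelin gene of ε cells, was at 3.24, 8.08 and 2.20 FPKM in the libraries labelled Wtap-βKO, against 1.96, 2.17 and 1.98 FPKM in the controls (adjusted p = 0.194 by limma, called in 0 of 18 alternatives), and its mean rested on replicate 2. All genes tested had shares of 8.77% called higher and 11.3% called lower, given here beside the marker counts that follow. Of 7 α-cell markers 5 were called higher, and all 7 summed to 33828 to 44689 FPKM in the libraries labelled Wtap-βKO and 21263 to 25473 FPKM in the controls. Most of that sum was Gcg, which was not called. Of 7 β-cell markers 5 were called lower, and all 7 summed to 81783 to 92378 FPKM in the Wtap-βKO libraries and 134469 to 154740 FPKM in the controls. Most of that sum was Ins2, at 56847 ± 2391 FPKM in the Wtap-βKO libraries and 89397 ± 5888 FPKM in the controls. Ins2 was 1.57-fold lower and did not overlap between the groups, but it was not called (limma log2 fold change -0.65 ± 0.31 SE, adjusted p = 0.190). No other fit of the variance is given for Ins2, so the missing call does not show that its level was unchanged. Iapp was not called either, at 12959 ± 1438 FPKM in the Wtap-βKO libraries and 13167 ± 1038 FPKM in the controls. All 7 of these β-cell markers are also among the 14 activated genes. Pancreatic polypeptide cell markers were highest in replicate 2 labelled Wtap-βKO, at 26379 FPKM, against 12798 and 12863 FPKM in its other samples and 11517 to 13151 FPKM in the controls. Mesenchymal markers, of which 4 of 6 tested were called higher, summed to 28.1 to 36.7 FPKM in the Wtap-βKO libraries and 14.4 to 20.5 FPKM in the controls. Acinar markers, of which 1 of 8 tested was called higher, summed to 169 to 243 FPKM in the Wtap-βKO libraries and 99.1 to 175 FPKM in the controls. Macrophage markers summed to 17.1 to 17.7 FPKM in the Wtap-βKO libraries and 11.3 to 13.6 FPKM in the controls without overlap, and 1 of 4 tested was called higher. Ductal markers, none of 4 tested called, summed to 45.8 to 62.1 FPKM in the Wtap-βKO libraries and 46.4 to 51.8 FPKM in the controls. No marker of these lists was at 0 in all samples, and the part of cell composition in the members' values was not tested.

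**Figure D5:**
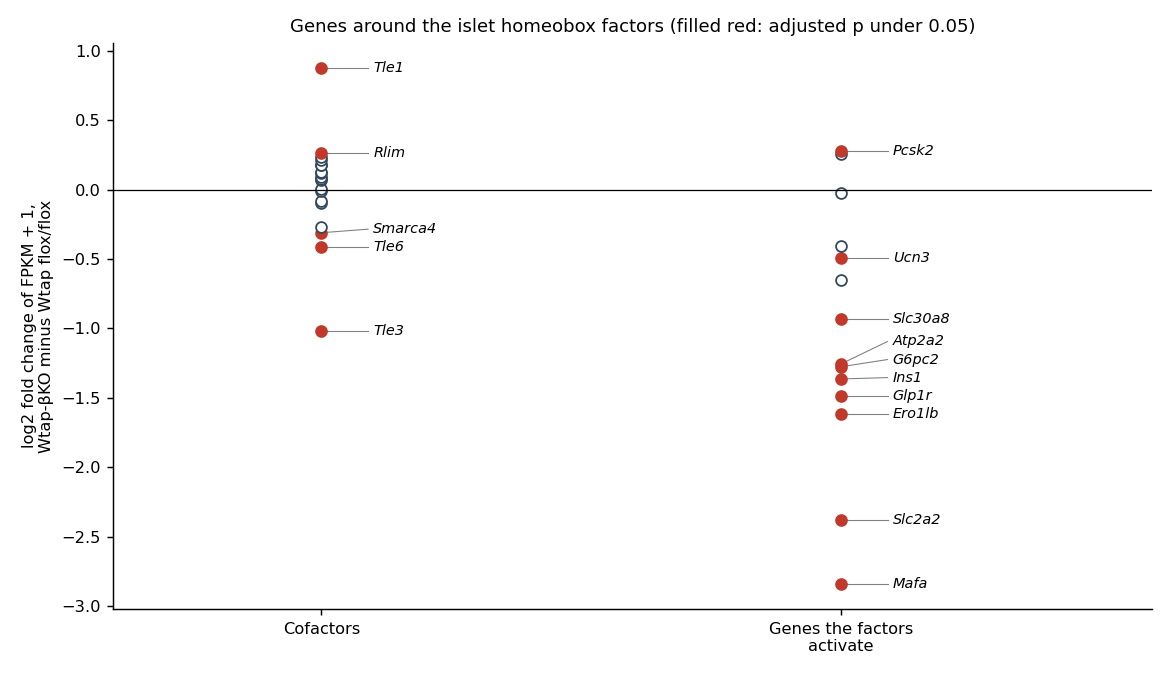
Log2 fold change of FPKM + 1 (vertical axis, Wtap-βKO minus Wtap flox/flox) of each gene above the minimum level in the list of cofactors and the list of activated genes around the islet homeobox factors; filled red points with names had an adjusted p under 0.05 by limma and open points did not. Of the genes that the factors activate, 9 lie below 0 in red, Mafa and Slc2a2 the farthest, and Tle3 and Tle1 lie at opposite ends of the cofactors.

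Promoters of 2 members and of 2 known targets are shown to set these values beside the sequence that homeodomains read. The windows run from 250 bases before to 50 bases after a RefSeq start (build GRCm38.p6), 5′ to 3′ on the gene's strand, and capitals mark TAAT on either strand (ATTA where it lies on the other), overlaps included.
Ins1, chr19:52264047-52264346, plus strand: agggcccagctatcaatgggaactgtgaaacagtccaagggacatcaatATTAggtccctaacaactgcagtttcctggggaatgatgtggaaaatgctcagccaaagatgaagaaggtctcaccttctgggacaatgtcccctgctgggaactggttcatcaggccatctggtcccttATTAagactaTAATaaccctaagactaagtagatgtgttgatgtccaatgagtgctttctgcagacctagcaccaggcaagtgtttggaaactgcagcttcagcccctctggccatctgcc
Slc2a2, chr3:28697653-28697952, plus strand: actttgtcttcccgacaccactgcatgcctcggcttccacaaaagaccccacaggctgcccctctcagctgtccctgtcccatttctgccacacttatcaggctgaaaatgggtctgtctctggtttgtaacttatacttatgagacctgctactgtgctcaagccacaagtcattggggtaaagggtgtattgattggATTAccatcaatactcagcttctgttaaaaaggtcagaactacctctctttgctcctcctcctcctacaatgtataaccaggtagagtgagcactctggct
Mnx1, chr5:29478421-29478720, minus strand: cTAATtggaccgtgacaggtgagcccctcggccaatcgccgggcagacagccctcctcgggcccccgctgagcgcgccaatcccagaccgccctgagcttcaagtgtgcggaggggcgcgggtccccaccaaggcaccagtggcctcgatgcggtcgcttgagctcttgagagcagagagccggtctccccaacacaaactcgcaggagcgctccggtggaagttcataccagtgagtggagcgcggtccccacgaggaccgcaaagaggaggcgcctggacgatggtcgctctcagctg
Pdx1, chr5:147269847-147270146, plus strand: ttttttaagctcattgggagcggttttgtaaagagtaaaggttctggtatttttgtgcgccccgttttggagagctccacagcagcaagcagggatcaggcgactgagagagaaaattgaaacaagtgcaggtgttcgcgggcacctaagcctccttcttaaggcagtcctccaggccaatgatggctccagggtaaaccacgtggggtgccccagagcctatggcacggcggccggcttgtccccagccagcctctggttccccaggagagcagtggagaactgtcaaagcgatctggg
Ins1, an insulin gene that PDX1 binds, held 3 matches, at 201, 71 and 61 bases before the start, and it fell 2.57-fold. Slc2a2 held 1 match and fell 5.34-fold. The Mnx1 window held 1 match at its far end, and those of Pdx1, Nkx6-1 and Hhex held none, which says only that these letters are not in these windows. Of 32851 promoters of the same length, 58.0% held TAAT. RefSeq windows were found for 8 of the 9 members, 11 windows in all, of which 7 held it.

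By the naming rule, the genes whose profile over the 6 samples was nearest to that of Nkx6-1 were Rasgrf1, Gm30648 and Fhdc1, among 7830 genes with a mean of at least 5 FPKM. The root mean square difference of their centred log2 values from Nkx6-1 was 0.0584, 0.0670 and 0.0768. Rasgrf1, a Ras exchange factor, was at 8.05 ± 0.739 FPKM in the libraries labelled Wtap-βKO and 18.2 ± 0.672 FPKM in the controls (SD, n = 3 each). Nearest to Pdx1 were Sec16b, Gm14097 and Eef1akmt3, at 0.0796, 0.0879 and 0.0911. Sec16b, which organises exit sites of the endoplasmic reticulum, was at 6.22 ± 1.16 FPKM in the libraries labelled Wtap-βKO and 13.4 ± 0.159 FPKM in the controls. Plppr2, Mdp1 and Wdr4 were nearest to Ldb1, at 0.0157, 0.0191 and 0.0286, all 3 with means within 1.04-fold between the groups. A group difference like that of the member follows from how these nearest genes were chosen.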

How the data were processed

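The authors deposited 1 table of FPKM values with a gene length per gene, per the file headers, and 1 column per sample. The tools, per the submitters' processing notes, included HISAT2 2.0.5, DESeq2 1.20.0, CASAVA and featureCounts 1.5.0-p3 on GRCm38 (mm10), with no role given. FPKM multiplied by gene length gave whole reads, within 0.01 read, for all values. The deposited scaling differed from total recovered reads by a factor that was higher in the samples labelled Wtap-βKO (1.04 to 1.07) than in the controls (0.952 to 0.988). Coordinates are those of the table, and 8 of 9 members had the same ones in GENCODE M21. Ldb1, on the minus strand, has its lower coordinate there at 46031570, its 3′ end, and the same upper coordinate of 46045214.

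FPKM as deposited was tested as log2(FPKM + 1), which understates changes of low genes, with limma 3.58.1 (R 4.3.3, variance trend, two-sided) over 15927 genes with a mean of at least 0.5 FPKM, with Benjamini-Hochberg adjustment over all of them and a threshold of 0.05. Fold changes are Wtap-βKO over or minus Wtap flox/flox, and folds are ratios of mean FPKM. In simulated data of 15927 genes, 24 of 100 genes changed 1.5-fold and 70 of 100 changed 2-fold were called, as were 18 of 15727 unchanged ones. The simulation gave every gene the same spread between replicates (dispersion 0.01) and changed far fewer genes than were called in the data. Its reads followed the recovered totals but were scaled as deposited, so unchanged genes also differed between the groups by that factor. These shares therefore do not give the power or error rate of the comparison itself.

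Members and lists were chosen with earlier results of these data known. The rule named all 9 members, Wtap, genes overlapping a member, repressed targets, up to 6 genes per list with the smallest adjusted p at a mean of at least 1 FPKM, and the 3 nearest profiles of Pdx1, Nkx6-1 and Ldb1. Some genes and sequences under these rules are not reported here. Other genes were named after their values were seen. The 19 alternatives varied the scaling, pseudocount, filter, variance model, test, replicate block, samples and gene type. Python 3.11.15, pandas 2.3.3 and matplotlib 3.10.9 were used.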

Additional observations from a re-analysis of the deposited data

How the results depend on the processing

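Nkx6-1, Pdx1, Mnx1 and Pax6 were called lower under all 19 alternatives, with log2 fold changes from -1.14 to -1.0, -1.03 to -0.73, -0.69 to -0.53 and -0.42 to -0.29. The number of members called higher, 0 by limma against 7 members at an unadjusted p under 0.05 in either direction and 0 by voom, was 1 with quantile normalization, 1 when scaled without the 50 highest genes, 1 with protein-coding genes only and 2 when scaled to total recovered reads, and 0 to 1 when a sample was left out. Ldb1, at 0.02, turned to -0.0881 without replicate 2 labelled Wtap-βKO and to -0.0178 without control replicate 3 (range without a sample -0.0881 to 0.0797), and 6430503K07Rik, at -0.15, to 0.00879 without control replicate 3 (range -0.25 to 0.00879). The cause was not tested.

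Over all genes, 1798 were called lower and 1397 higher. Scaled to total recovered reads the counts were 1093 and 2336 (68.1% higher, against 43.7%), which moved the median log2 value over all genes tested by 0.09, and scaled without the 50 highest genes 53.8% were higher. Leaving out a sample gave 1027 to 1853 lower and 782 to 1380 higher: 1033, 1027 and 1046 lower, and 804, 782 and 866 higher, without control replicate 1, 2 and 3, and 1149 lower and 830 higher without replicate 3 labelled Wtap-βKO. The count of other homeodomain factors called, 5, was 3 with no filter on low values, 8 by voom on recovered reads, 8 with protein-coding genes only, 3 with the replicate block and 1 to 3 without a sample. Cofactors called, 5, were 2 with no filter and 1 to 7 without a sample.

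Same-numbered samples of the groups shared only a number, with correlations of their deviations of 0.0293, 0.0377 and 0.0185, although each of the 6 samples correlated best with its own number. With the replicate block 1490 genes were lower and 1148 higher, and 4 members remained lower. For Pax4, at 0 reads, the depth set only the upper limit given above, and the reason for the absence of reads was not tested.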

Other observations

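The deposited family column, a list taken up after the table was seen, marks 226 further genes as Homeobox. Of these, 41 passed the minimum level, and 5 were called higher and 4 lower, where 20.1% of all genes tested were called in either direction. The called Homeobox genes not described in the report are named here after their values were seen. Lmx1b, a LIM-homeodomain factor and thus of the class that LDB1 binds, fell to 3.51, 3.18 and 3.26 FPKM in the libraries labelled Wtap-βKO, against 6.40, 6.49 and 5.55 FPKM in the controls, 1.85-fold (limma log2 fold change -0.73 ± 0.080 SE, adjusted p = 0.00194), with a call in each of the 18 alternatives that tested it. Hopx, a small homeodomain protein that does not bind DNA, fell by 0.38 on the log2 scale (15 of 19 alternatives) and Six5 by 0.30 (16 of 19). Zfhx2 rose 1.23-fold (12 of 19).

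Rhox3g, a gene of the X-linked reproductive homeobox cluster, rose to 2.94, 3.38 and 2.34 FPKM in the libraries labelled Wtap-βKO, against 0.403, 1.02 and 0.170 FPKM in the controls (limma log2 fold change 1.37 ± 0.21 SE, adjusted p = 0.00664). It belongs to a family of near-identical copies among which reads may be split, so its values are uncertain.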
